A study of Mus musculus with 6 samples.

Results

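The response to stopping nitisinone (NTBC) that Fah and FCR mouse livers share was measured in all 6 liver samples of the series. The 4 samples from mice taken off NTBC, 2 of each genotype, were set against the 2 samples from mice kept on it, 1 of each genotype, with genotype as a block. Fah mice carry the Fah_del_tm1Mgo allele on a BL6 background. FCR mice carry Fah_del_tm1Mgo together with Rag2_del_tm1Fwa and the common gamma chain deletion tm1Wjl on the same background. All 6 samples therefore lack fumarylacetoacetate hydrolase, and the controls are Fah-deficient livers protected by the drug, not wild-type livers.

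Mice on continuous treatment (100%) drank water with NTBC at 7.5 µg/ml. The withdrawn samples were labelled off or 2xoff/on. The treatment text defines off as 2 courses of withdrawal (0% NTBC) and resupplementation, and says that livers of the 2xoff/on regimen, also cycled 2 times, were taken after off and on phases. It does not settle which phase a given withdrawn liver was in when it was collected. The labels call the continuous Fah sample healthy liver and the continuous FCR sample normal liver, both withdrawn Fah samples tumor and both withdrawn FCR samples inflamed liver. Withdrawal is therefore joined to tumour tissue in one genotype and to inflamed liver in the other. The labels give no age, no sex, and no statement that each sample came from 1 animal or from separate animals, so the p-values measure the spread between these samples only.

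Fumarylacetoacetate hydrolase carries out the last step of tyrosine breakdown. Without it fumarylacetoacetate and related toxic metabolites build up in hepatocytes, damage them and can lead to liver tumours. NTBC blocks 4-hydroxyphenylpyruvate dioxygenase (Hpd), an enzyme upstream of the missing one, and so keeps these metabolites from forming. Rag2 is needed to assemble antigen receptors and the common gamma chain is a subunit of several interleukin receptors, so FCR mice lack T, B and NK cells.

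Each array held 43379 spots, of which 0 were saturated. The share that passed the scanner's test for a signal well above background was 60.5% in continuous Fah and 64.4% in continuous FCR. It was 68.1% to 74.5% in the withdrawn arrays, above both controls each time. The array's 75th percentile signal was 363 and 374 in the controls, 363 in FCR off and 724 to 889 in the other withdrawn arrays. Values are given below as log2 levels relative to that percentile, so that a level of 0 equals it. Whether array brightness had a part in the differences below was not tested. The continuous arrays correlated with each other at 0.986 over all genes, and the continuous with the withdrawn arrays at 0.919 to 0.949. The withdrawn arrays correlated with each other at 0.946 to 0.975, a range that overlaps the last. The 2xoff/on arrays were on slide 2 and the other 4 arrays on slide 1, so slide and regimen changed together among the withdrawn samples. Rag2 passed that test on 0 arrays, and Il2rg, the common gamma chain gene, only on the 3 Fah arrays, with log2 levels of -3.40 in continuous Fah, -1.94 in Fah off and -1.98 in Fah 2xoff/on against -6.70 to -7.74 in FCR. Fah itself had log2 levels of -1.62 and -1.07 in the continuous arrays and -2.85 to -0.97 in the withdrawn ones, and did not pass the test (difference -0.67 ± 0.56, SE; adjusted p = 0.479). Whether the probes of these 3 genes lie in the deleted parts was not analysed here. The Y-linked gene Ddx3y had log2 levels of 1.08 to 2.14 on the 6 arrays and Eif2s3y of 1.88 to 3.04; both were looked up after other values had been seen.

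When NTBC was withdrawn, more liver genes passed the test as higher than as lower under the filter and scaling used here. Of 15382 genes tested, 2185 (14.2%) passed at an adjusted p of 0.05 in limma with Benjamini-Hochberg adjustment: 1470 (9.56%) rose, with a median log2 difference of 2.68, and 715 (4.65%) fell, with a median of -1.97. Among the gene lists examined, rises passed for most measured genes of mitosis (38 of 41), of fetal liver and tumour markers (21 of 25), of matrix and remodelling (25 of 44), of chemokines (16 of 28) and of bile ducts and progenitor cells (14 of 24). Falls passed for 13 of 18 male-biased genes and 22 of 44 cytochrome P450 genes, and for a smaller share of other hepatocyte lists. The counts of every list below are to be read beside the 9.56% and 4.65% among all genes, and a share near these does not set a list apart. All 2185 differed by at least 2-fold, 1532 by at least 4-fold and 255 by at least 16-fold. When arrays were centred on their median instead of the 75th percentile, which moved the median of all genes to -0.33, 960 rose and 812 fell. Both withdrawn arrays of each genotype lay on the same side of that genotype's continuous array, called here moving alike, in all 2185 genes; a test of the shared difference favours such genes, so this is no separate result. Among all 15382 genes 3701 (24.1%) moved alike upwards, 3880 (25.2%) moved alike downwards and 7801 did not move alike, of which 996 went opposite ways in the genotypes on every array. Groups that did not overlap, with all 4 withdrawn arrays above both continuous arrays or all below, were found for 3082 genes (20.0%) and 3218 genes (20.9%). In neither of these counts over all genes did rises outnumber falls.

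The response was then compared between genotypes. Over all 15382 genes the withdrawal differences of Fah and FCR, which rest on separate arrays but share the slides, had a Pearson r of 0.77. Among the 2185 genes the difference was larger in Fah for 1498 and larger in FCR for 687, with median absolute differences of 2.65 and 2.19. The genotypes lay within 1 log2 unit of each other for 1377 of them. The test of the genotypes' difference passed 0 genes in limma (0%; 331 at an unadjusted p under 0.05), and its 95% interval reached a median of 2.28 log2 units to either side before any adjustment. Far wider gaps than that did not pass either, such as 7.58 for Cd200r3 (adjusted p = 0.939), so only very large differences between genotypes were detectable with these arrays. With slide as a block it passed 91 genes, 48 with a larger and 43 with a smaller difference in Fah. That fit left 1 residual degree of freedom, and slide and regimen changed together, so the 91 are not taken as genotype differences.

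**Figure D1:**
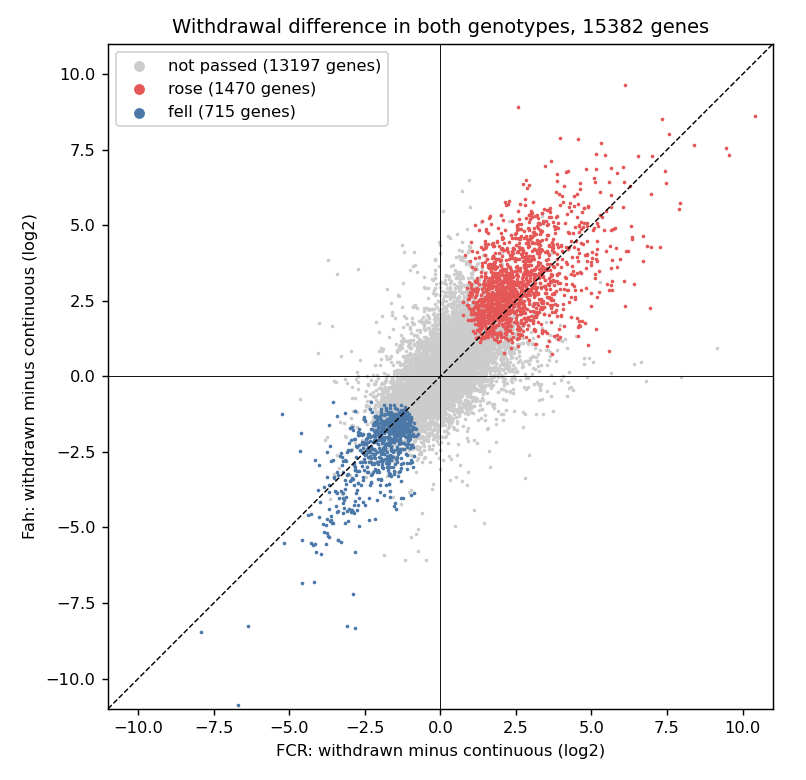
Withdrawal difference in Fah (vertical axis, log2) against that in FCR (horizontal axis, log2) for 15382 genes, with the 1470 genes that rose in red, the 715 that fell in blue and the rest in grey; the dashed line marks equal differences. Every coloured gene lies in the upper right or lower left corner, and more of them lie on the Fah side of the line (1498) than on the FCR side (687).

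The number of genes that passed rested most on the controls. Each genotype has 1 control, so a fit without it takes the withdrawal difference from the other genotype alone. Counts without a continuous array, here and for the lists below, therefore describe 1 genotype and are no check of the shared response. Without the continuous Fah array 283 genes passed, and without the continuous FCR array 803. It was 1028 without the Fah off array and 1214 without the Fah 2xoff/on array, and of the 2185 genes 207 passed with each of the 6 arrays left out in turn. Within slide 1, the off regimen against the continuous arrays, 2037 of the 2185 genes passed, and 1958 passed in the 2xoff/on regimen alone. Both fits use the same 2 controls and leave 1 residual degree of freedom. Their direction was fixed beforehand, since all 2185 genes moved alike. A log2 value far below background is noise, and 366 of the 1470 genes that rose had no probe well above background on either continuous array. Those named are given below as approximate lower bounds ("at least"). They set the mean of the bright arrays against the lowest signal of any probe well above background on the dim array, or the probe's own signal if higher. A probe's own limit can lie above that lowest signal, so the true fold can be smaller. When all values were floored at a log2 level of -5.12, 737 genes passed.

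Of the 15 largest rises, 10 were of genes with no probe well above background in the protected livers, so their order is not known. Krt20, a keratin of intestinal epithelium, was not well above background in either continuous array (log2 levels -7.15 in Fah and -7.59 in FCR) and stood at 0.88 in Fah off, 2.06 in Fah 2xoff/on, 3.32 in FCR off and 2.34 in FCR 2xoff/on. That is at least 176-fold higher. The limma fit that gave an adjusted p of 0.000155 used the control values below background, not this bound. All 4 withdrawn arrays lay far above both controls. Sult2a6, a sulfotransferase, went from -5.35 and -5.49 to 2.48 and 1.91 in the Fah arrays and 5.0 and 2.88 in the FCR arrays, at least 332-fold higher; the related Sult2a3 was at least 24.1-fold higher. These sulfotransferases have close paralogues whose transcripts a probe may also bind. Tmem54 stood at -6.86 and -6.83 in the controls and at 1.66, 1.66, 0.23 and 0.81 in the withdrawn arrays, at least 84.6-fold higher.

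Other large rises were of genes with known roles in epithelia, lipid metabolism and signalling. Cldn4, a tight junction protein, was at least 28.1-fold higher. Elovl7, a fatty acid elongase, went from -5.67 and -3.64 to 1.21, 2.01, 3.53 and 3.20; it was well above background on 1 of the 2 continuous arrays, so no exact fold is given. Bmp8b, a ligand of the bone morphogenetic protein family, was at least 47.6-fold higher, Serpinb9g at least 31.1-fold and Bex1 at least 49.8-fold. Ggt1, which starts the breakdown of extracellular glutathione, was likewise measured on 1 of the 2 continuous arrays (-6.60 in Fah and -5.23 in FCR), and stood at -0.87 and -1.26 in the withdrawn Fah arrays and at 2.72 and 2.61 in the FCR arrays. For Syt13, a synaptotagmin, the 2 probes disagreed: the probe that rose was not well above background on either continuous array and the other differed by -0.05, so its rise is uncertain.

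**Figure D2:**
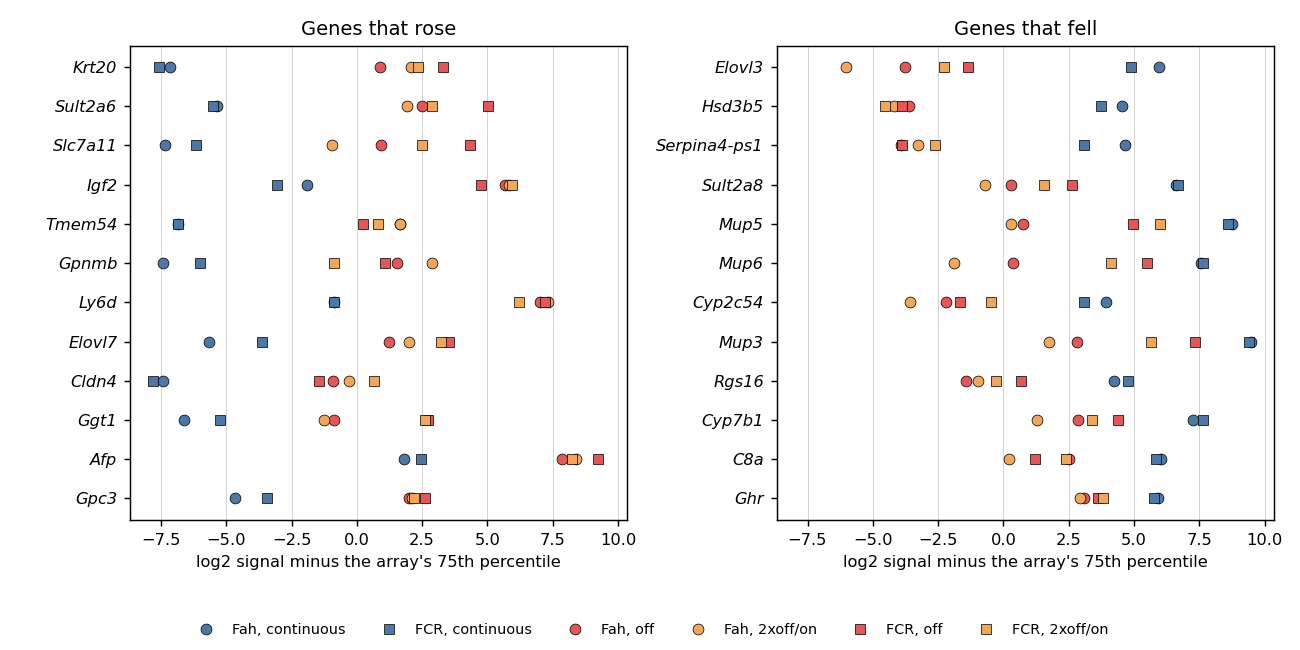
Log2 level relative to the array's 75th percentile (horizontal axis) of 12 genes that rose and 12 that fell, in each of the 6 arrays; circles are Fah and squares FCR, blue is continuous NTBC, red off and orange 2xoff/on. In every one of the 24 genes the 4 withdrawn arrays lie on one side of both continuous arrays, and in the withdrawn arrays the Mup genes lie lower in Fah than in FCR.

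Fetal liver and tumour marker genes rose nearly as one. Of 25 measured, 21 rose and 0 fell (9.56% and 4.65% among all genes), with a median difference of 3.10 against -0.02 over all genes. Afp, the fetal serum protein used as a liver tumour marker, had log2 levels of 1.81 in continuous Fah and 2.46 in continuous FCR, and of 7.85 in Fah off, 8.37 in Fah 2xoff/on, 9.24 in FCR off and 8.22 in FCR 2xoff/on. The groups did not overlap, and the highest level was in the inflamed FCR liver labelled off, not in a Fah tumor. Its difference was 6.29 ± 0.40 (SE; adjusted p = 0.000171).

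Igf2, the fetal insulin-like growth factor, rose from -1.92 and -3.05 to 5.66, 5.84, 4.75 and 5.93, a difference of 8.03 ± 0.41 (SE). Gpc3, a heparan sulfate proteoglycan used as a marker of hepatocellular carcinoma, rose from -4.66 and -3.44 to levels between 2.01 and 2.60 in all 4 withdrawn arrays. Ly6d, a surface protein anchored by a lipid, stood at -0.88 in both controls and between 6.19 and 7.30 after withdrawal. For Igf2, Gpc3 and Ly6d the gap between the groups was wider than the spread within either. Pkm, the pyruvate kinase of growing tissue, rose by 3.10 ± 0.42 (SE), with its highest level, 2.80, in FCR 2xoff/on. Hk2, the inducible hexokinase, rose by 2.98 ± 0.81 (SE). Without the continuous Fah array 10 of the 25 passed, and with floored values 12.

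Genes of bile ducts and liver progenitor cells rose too: of 24 measured, 14 rose and 0 fell, with a median difference of 3.23 in Fah and 1.85 in FCR. Prom1, which encodes the stem cell surface protein CD133, was at least 31.9-fold higher. Cd24a, a surface glycoprotein of progenitor cells, rose from -2.41 and -3.33 to 2.90 and 2.40 in the Fah arrays and 2.09 and 0.73 in the FCR arrays. Krt19, a keratin of bile duct cells, stood at -2.13 and -2.64 in the controls, at 1.55 and 1.36 in the Fah arrays and at 0.11 and -0.77 in the FCR arrays, a difference of 2.95 ± 0.45 (SE). Krt7, another duct keratin, rose by 2.83 ± 0.51 (SE), and Epcam, an adhesion molecule of duct and progenitor cells, by 3.77 ± 0.62 (SE). In Cd24a, Krt19, Krt7 and Epcam the FCR 2xoff/on array had the lowest level of the 4. The cholangiocyte marker list moved with them: its summed level over 9 genes was 9.71 and 10.8 in the continuous arrays and 18 to 155 in the withdrawn ones, and 6 of the 9 rose. Since both lists share genes, and duct cells in a bulk sample may be more numerous or may each hold more RNA, which cannot be told apart, its part in these rises was not tested. Without the continuous Fah array 6 of the 24 and 1 of the 9 passed, and with floored values 9 and 3.

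Of 15 keratins measured, 5 rose and 0 fell. Krt76 stood at -7.37 and -7.80 in the controls and at -7.94 and -6.81 in the withdrawn Fah arrays, but at 0.22 and 0.08 in the withdrawn FCR arrays, and did not pass (adjusted p = 0.112). Sprr1a, a protein of the cornified envelope that is induced in stressed epithelia, rose from -3.15 and -2.67 to levels between 2.84 and 3.69, almost the same in all 4 withdrawn arrays. It was the 1 gene that passed among 6 squamous epithelium markers measured, of 12 listed. Krt5, a keratin of stratified epithelium, stood at -3.15 and -3.16 in the withdrawn Fah arrays and at 1.59 and 2.07 in the FCR arrays and did not pass (adjusted p = 0.0708). The squamous count was 2 without the continuous Fah array and 2 without the FCR off array. The keratin count was 3 without the continuous Fah array, 3 without the Fah off array and 3 with floored values.

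Genes of mitosis and the spindle gave the largest share of rises among the lists examined: 38 of 41 measured rose and 0 fell, with a median difference of 3.66. By median the rise was larger in Fah (4.57) than in FCR (2.90). Hmmr, a spindle-associated protein, had log2 levels of -3.69 in continuous Fah and -3.82 in continuous FCR, and of 1.25 in Fah off, 2.06 in Fah 2xoff/on, 1.69 in FCR off and 1.23 in FCR 2xoff/on. The 4 withdrawn levels lay close together, and the difference was 5.31 ± 0.40 (SE; adjusted p = 0.000286). Ccnb1, the mitotic cyclin B1, rose from -4.97 and -5.60 to 0.59, 0.77, -1.59 and -0.74, a difference of 5.04 ± 0.48 (SE), with 1 of the 2 continuous arrays well above background. Pbk, a mitotic kinase, rose from -4.37 in both controls to 1.19, 1.44, -0.60 and -0.22. In Ccnb1 and Pbk both Fah arrays lay above both FCR arrays. Cdkn3, a phosphatase that acts on cyclin-dependent kinases, had levels of -3.32 and -2.57 in the controls, 2.46 and 3.66 in the Fah arrays, and -0.90 and 1.21 in the FCR arrays. The 3 genes of the list that did not pass were Espl1 (1.68), Cks2 (1.00) and Bub1 (-0.03), named after their values were seen. The value for Bub1 is that of its brighter probe, and its other probe differed by 4.73, so its level is uncertain. Without the continuous Fah array 11 of the 41 passed, and with floored values 22.

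Promoters of the mitosis genes are shown here because these genes moved together and because many cell cycle promoters hold a pair of short motifs: CCAAT boxes, and the cell cycle homology region, read here as TTTGAA. RefSeq promoters (GRCm38.p6, 250 bases before to 50 after the first listed start) were at hand for 35 of the 41 genes, and both strands were searched. CCAAT was in 27 of the 35 (77.1%) and TTTGAA in 25 (71.4%). Among 12260 promoters of all genes tested the shares were 38.2% and 13.3%, and among all 27025 promoters of that length 37.9% and 18.1%. Both motifs stood together in 22 of the 35 (62.9%), against 5.4% of the tested genes and 7.12% of all promoters. CCAAT was also common in other lists: it stood in 15 of 16 promoters of cholesterol genes (93.8%), of which 2 of 24 fell, and in 7 of 10 of tyrosine breakdown (70%). TTTGAA stood in 6 of 12 promoters of male-biased genes (50%), which fell in 13 of 18 cases. The 2 motifs can share only an end base. E-boxes (CACGTG) stood in 3 of the 35. The 4 promoters below belong to the mitosis genes with the largest differences among those with both motifs; capitals mark CCAAT or TTTGAA on either strand (ATTGG and TTCAAA are their reverse). Ube2c and Cdc20, which rose by 4.55 ± 0.69 and 4.30 ± 0.42 (SE), were chosen after their values were seen. The fifth is that of Bub1, whose 2 probes disagree.
Hmmr (chr11:40733388-40733687, minus strand): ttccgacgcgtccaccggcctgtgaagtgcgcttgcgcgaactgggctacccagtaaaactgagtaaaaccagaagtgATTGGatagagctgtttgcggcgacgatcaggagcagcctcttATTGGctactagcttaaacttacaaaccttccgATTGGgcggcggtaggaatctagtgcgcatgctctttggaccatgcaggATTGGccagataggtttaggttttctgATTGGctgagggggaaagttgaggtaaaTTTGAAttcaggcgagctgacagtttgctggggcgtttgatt
Cdkn3 (chr14:46760291-46760590, plus strand): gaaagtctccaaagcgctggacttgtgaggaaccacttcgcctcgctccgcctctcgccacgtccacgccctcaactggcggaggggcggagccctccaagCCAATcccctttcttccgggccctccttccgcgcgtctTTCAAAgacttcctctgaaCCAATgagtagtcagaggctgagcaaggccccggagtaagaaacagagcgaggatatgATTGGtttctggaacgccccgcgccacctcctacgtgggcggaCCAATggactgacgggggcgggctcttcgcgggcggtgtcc
Ube2c (chr2:164769679-164769978, plus strand): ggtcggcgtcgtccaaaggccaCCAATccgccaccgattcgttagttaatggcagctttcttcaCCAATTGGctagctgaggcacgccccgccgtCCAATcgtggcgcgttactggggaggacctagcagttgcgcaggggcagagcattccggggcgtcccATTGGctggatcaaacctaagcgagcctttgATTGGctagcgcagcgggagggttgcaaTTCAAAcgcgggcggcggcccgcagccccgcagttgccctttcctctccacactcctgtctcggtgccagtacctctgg
Cdc20 (chr4:118437294-118437593, minus strand): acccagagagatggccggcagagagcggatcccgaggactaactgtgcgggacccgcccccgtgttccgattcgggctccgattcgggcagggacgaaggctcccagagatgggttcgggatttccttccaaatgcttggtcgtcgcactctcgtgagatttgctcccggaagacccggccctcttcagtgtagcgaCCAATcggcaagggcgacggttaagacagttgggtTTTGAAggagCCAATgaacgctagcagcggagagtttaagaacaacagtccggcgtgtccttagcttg
Bub1 (chr2:127831810-127832109, minus strand): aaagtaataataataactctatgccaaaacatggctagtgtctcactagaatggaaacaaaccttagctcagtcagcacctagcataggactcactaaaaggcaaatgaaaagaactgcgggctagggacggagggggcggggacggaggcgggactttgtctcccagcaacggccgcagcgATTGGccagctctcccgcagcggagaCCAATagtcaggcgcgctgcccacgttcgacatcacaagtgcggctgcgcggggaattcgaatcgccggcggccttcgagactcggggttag

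The places of the matches are described without those in promoters of all genes, so a preference for a place was not tested. The 71 CCAAT matches centred at a median of -65 bases from the start site, with quartiles of -109 and -22, and the 31 TTTGAA matches at a median of 6 bases after it, with quartiles of -47 and 23. Hmmr held 5 CCAAT boxes upstream of a single TTTGAA near its start. Bub1 held CCAAT boxes but no TTTGAA in this window. Of the 32 mitosis genes with a promoter that rose, 21 held both motifs. A match is a description of these letters and not a shown binding site, and the search was made after the rise of these genes was known.

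**Figure D3:**
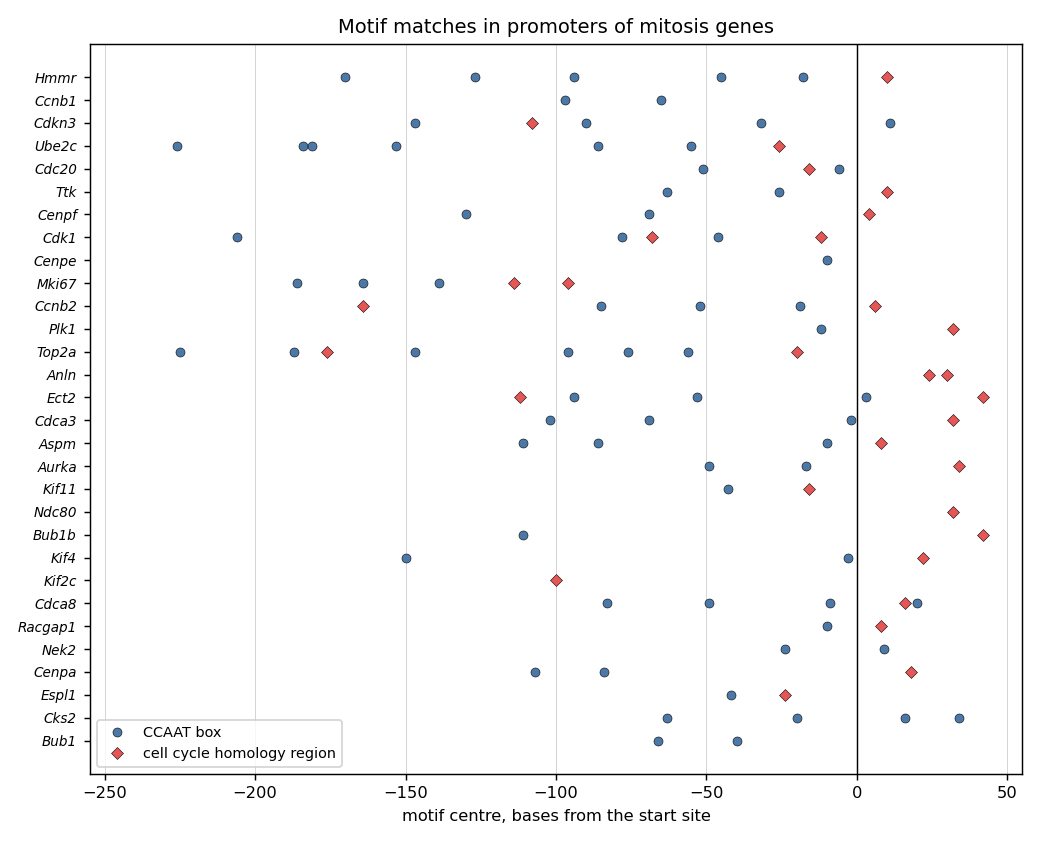
Centre of each CCAAT match (blue circles) and TTTGAA match (red diamonds, labelled cell cycle homology region) in bases from the start site (horizontal axis) for the mitosis genes with a match in their 300-base promoter, ordered by withdrawal difference with Hmmr at the top and Bub1 at the bottom. The CCAAT matches lie mostly upstream of the start site (median -65), and the TTTGAA matches crowd around it (median 6).

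DNA replication genes rose in part: 18 of 39 measured rose and 1 fell, with a median difference of 1.39. Cdc6, which loads the replicative helicase, was at least 7.1-fold higher and Uhrf1, which guides maintenance of DNA methylation, rose by 3.92 ± 0.47 (SE). Exo1, a nuclease of DNA repair, rose by 3.82 ± 0.51 (SE). Mcm10, a replication initiation factor, fell, from 5.57 and 5.39 to levels between 1.54 and 2.20. It has 1 probe on the array, and that probe moved against the rest of its list. In the 31 replication genes with a promoter CCAAT stood in 61.3%, above the share of tested genes, and TTTGAA in 16.1%, close to it. The count of rises was 2 without the continuous Fah array, 9 without the continuous FCR array, 6 without the Fah off array, 9 without the Fah 2xoff/on array, 9 with arrays centred on their median and 6 with floored values.

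Of the 15 largest falls, 4 were of the list of genes that male livers express more than female livers under the pulsed growth hormone of males. Of 18 measured, 13 fell and 0 rose (4.65% and 9.56% among all genes), with a median difference of -3.51, and 17 moved alike downwards. Elovl3, a fatty acid elongase, fell from log2 levels of 5.96 in continuous Fah and 4.88 in continuous FCR to -3.77 in Fah off, -6.03 in Fah 2xoff/on, -1.37 in FCR off and -2.28 in FCR 2xoff/on, a difference of -8.78 ± 0.94 (SE; adjusted p = 0.00131), with 3 of the 4 withdrawn arrays well above background. Hsd3b5, a male steroid dehydrogenase, fell from 4.54 and 3.73 to levels between -4.54 and -3.62, nearly equal in the 4 withdrawn arrays, a difference of -8.19 ± 0.42 (SE).

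The major urinary proteins, which carry pheromones, fell unevenly. Mup5 stood at 8.77 and 8.58 in the controls, at 0.73 and 0.30 in the Fah arrays, and at 4.96 and 6.0 in the FCR arrays. Mup3 went from 9.49 and 9.40 to 2.83 and 1.73 in Fah and to 7.35 and 5.65 in FCR, and Mup6 fell by 5.57 ± 1.13 (SE) with the same order. For Mup5 the difference was -8.25 in Fah and -3.10 in FCR, and the test between genotypes did not pass (adjusted p = 0.939). Mup genes are near-identical copies, so which of them each probe reports is uncertain. Cyp7b1, an oxysterol hydroxylase, fell from 7.26 and 7.63 to 2.86, 1.27, 4.38 and 3.41, and Cyp4a12a, a male fatty acid hydroxylase, fell by 3.45 ± 0.57 (SE). The Y-linked genes given above were well measured on all 6 arrays. The count was 3 without the continuous Fah array and 7 with floored values.

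Genes that female livers express more did not move as a list: 5 of 20 rose and 2 fell. Sult1e1, the estrogen sulfotransferase, rose by 4.81 ± 0.46 (SE). A1bg was near background in both controls and in FCR off (-7.97), stood at -2.07, -2.02 and -0.88 in the other withdrawn arrays, and did not pass. The count of rises was 8 without the FCR off array, 2 without the continuous Fah array, 2 with floored values and 3 after normexp background correction; the falls numbered 0 or 1 without any 1 array other than FCR off. In the growth hormone axis 3 of 19 genes fell and 1 rose, which was Igf2. Ghr, the growth hormone receptor, fell from 5.90 and 5.77 to 3.07, 2.91, 3.62 and 3.81. Igfals, which stabilises circulating IGF1, differed by -3.01 ± 0.87 (SE), with 1 low array, FCR off at -2.96, and did not pass (adjusted p = 0.0519). The count of falls was 8 without the FCR off array, 6 without the FCR 2xoff/on array, 1 without the continuous FCR array, 1 without the Fah 2xoff/on array, 0 without the continuous Fah array, 6 with arrays centred on their median, 1 after quantile normalization and 1 with floored values.

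Cytochrome P450 enzymes, which oxidise drugs, steroids, fatty acids and bile acids, fell widely: 22 of 44 measured fell and 1 rose, with a median of -1.47. Cyp2c54 fell from 3.93 and 3.09 to -2.19, -3.58, -1.66 and -0.49, a difference of -5.49 ± 0.68 (SE). Cyp2c37 fell by 4.49 ± 0.44 (SE). The exception was Cyp1a1, the classical target of the aryl hydrocarbon receptor, which rose from -3.38 and -2.49 to 1.01, 2.15, 3.09 and 1.38. Cyp1a2, its neighbour on the chromosome and usually induced with it, fell by 3.28 ± 0.61 (SE), from 5.48 and 5.0 to levels between 0.69 and 3.22. The groups did not overlap for either gene. The count of falls was 3 without the continuous Fah array, 11 without the continuous FCR array and 8 with floored values. Of 24 conjugating enzymes of the glucuronosyl- and sulfotransferase list 5 fell and 2 rose. Ugt3a1 and Ugt3a2, sugar transferases, fell by 4.36 ± 0.47 and 4.21 ± 0.47 (SE), and Sult5a1 fell by 3.87 ± 0.51 (SE). Outside that list Sult2a8 fell, by 5.71 ± 0.58 (SE), while its relatives Sult2a6 and Sult2a3 rose. The falls of the list numbered 9 without the FCR off array, 9 without the FCR 2xoff/on array and 2 without the continuous Fah array, and the rises 1 without the continuous FCR array and 1 with floored values.

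Of 27 genes of bile acid synthesis and transport measured, 12 fell (44.4%) and 3 rose (11.1%, close to the 9.56% among all genes), with a median of -1.34. Cyp8b1, which sets the share of cholic acid, fell from 3.32 and 3.44 to -0.89, -1.35, -0.59 and 1.59, and Cyp27a1, of the acidic pathway, by 3.02 ± 0.59 (SE). Slc10a1, the sodium-coupled bile acid importer, fell from 4.95 and 4.71 to 1.65, 1.18, 1.62 and 3.22. The 3 that rose were the transporters Abcc4 (2.66) and Abcb1a (2.35, with 1 of the 2 controls well above background) and Slc51b (2.56), a subunit of the basolateral bile acid exporter. Abcb11, the bile salt export pump of the canaliculus, fell by 1.73 ± 0.34 (SE). These 4 were named after their values were seen. Cyp7a1, the rate-limiting enzyme of the classical pathway, had levels of 2.05 and 2.38 in the controls and 2.96, 2.50, 0.15 and 3.00 in the withdrawn arrays, with FCR off alone low, and differed by -0.06 ± 0.72 (SE; adjusted p = 0.97). The 12 falls became 0 without the continuous Fah array, 6 without the continuous FCR array and 6 with floored values, and the 3 rises 0 without either continuous array and 0 with floored values.

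Proteins that hepatocytes secrete into blood fell by smaller steps: 17 of 44 fell, 0 rose, and 39 of the 44 moved alike downwards, with a median of -1.14. The 3 terminal complement components and Itih1 gave the 4 largest differences. C8a went from 6.01 and 5.84 to 2.51, 0.20, 1.22 and 2.39, C8b fell by 3.44 ± 0.60 and C9 by 2.96 ± 0.73 (SE). Itih1, which carries hyaluronan-binding chains, fell by 3.48 ± 0.92 (SE), with FCR off lowest at -0.84. Alb had levels of 10.3 and 10.2 in the controls and 9.15, 8.79, 9.97 and 9.09 in the withdrawn arrays, below both controls each time, but did not pass (-1.01 ± 0.43, SE; adjusted p = 0.157). The 17 falls became 0 without the continuous Fah array, 1 without the continuous FCR array, 8 without the Fah off array, 5 without the Fah 2xoff/on array, 5 after quantile normalization and 2 with floored values. Of 7 hepatocyte markers measured, of 10 listed, 1 fell, Hnf4a (2 without the FCR off array, 4 without the FCR 2xoff/on array and 0 without any 1 of the others), and their summed level was 2884 and 3134 in the continuous arrays and 1350.1 to 2357 in the withdrawn ones; its part in the falls of hepatocyte genes was not tested.

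Transcription factors of hepatocytes fell in 6 of 24 cases and rose in 0. Cebpa, which drives hepatocyte gene expression, went from 4.96 and 5.10 to 3.37, 2.22, 1.72 and 3.27, and Nr1i3, the nuclear receptor CAR, from 2.32 and 2.72 to -0.35, 0.20, 0.64 and 0.36. Cebpb fell by 1.79 ± 0.49 and Hnf4a by 1.20 ± 0.33 (SE). The count was 0 without either continuous array, 2 without the Fah off array, 2 without the Fah 2xoff/on array, 1 after quantile normalization and 2 with floored values. Median differences of the metabolic lists were also negative, with fewer calls. In gluconeogenesis and glycogen metabolism 5 of 15 fell, among them Gys2, glycogen synthase of liver, by 1.70 ± 0.32 (SE). In the urea cycle 4 of 11 fell, among them Otc, ornithine transcarbamylase, from 6.13 and 6.32 to 3.03, 3.08, 4.14 and 4.19, and Asl, argininosuccinate lyase, by 1.46 ± 0.40 (SE). Among 28 genes of fatty acid oxidation 5 fell (17.9%) and 3 rose (10.7%, close to the 9.56% among all genes). Pdk4, which restrains pyruvate oxidation, was one of those rises (3.53 ± 0.60, SE). In lipogenesis 6 of 20 fell (30%) and 1 rose, Pnpla3 (5%, below the share among all genes). Thrsp, a regulator of lipid synthesis, stood at 4.62 and 5.52 in the controls and at 1.16, -0.01, -0.62 and 4.33 in the withdrawn arrays. Its FCR 2xoff/on level was near the controls, and it did not pass in limma (adjusted p = 0.0516). In each of these 4 lists the falls numbered 0 or 1 without the continuous Fah array, and 0 to 3 without the continuous FCR array. They numbered 1 to 3 without the Fah off array, without the Fah 2xoff/on array and with floored values. Without the FCR off array falls rose to 8 in gluconeogenesis and 10 in fatty acid oxidation, and without the FCR 2xoff/on array to 11 in lipogenesis. The rises of fatty acid oxidation genes numbered 0 without the continuous FCR array and 1 without any 1 of the 3 Fah arrays. Of 24 genes of cholesterol synthesis and uptake 2 fell and 0 rose, with a median of -0.85; 11 fell without the FCR 2xoff/on array and 0 without any 1 of the continuous arrays or of the withdrawn Fah arrays. Of 24 glycolysis genes 4 rose and 2 fell, with a median of 0.06 that turned to -0.24 with arrays centred on their median. Besides Pkm and Hk2, Pfkp, a phosphofructokinase, rose by 2.59 ± 0.44 (SE), although its other probe gave 0.70, and Slc2a2, the hepatocyte glucose transporter, fell by 1.83 ± 0.33 (SE). The rises of glycolysis genes numbered 1 without either continuous array, 2 without either withdrawn Fah array, 2 with arrays centred on their median, 2 after normexp background correction and 1 with floored values, and the falls 0 without either continuous array and 4 without the FCR 2xoff/on array.

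Periportal and pericentral genes, which mark the ends of the liver lobule, both held falls. Periportal genes fell in 6 of 15 cases and rose in 0, with Pigr, the transporter of polymeric immunoglobulin, going from 4.66 and 4.40 to 0.10, 0.31, -0.59 and 2.59 and Cyp2f2 falling by 4.02 in Fah and 1.29 in FCR. Pericentral genes fell in 6 of 20 cases and rose in 1. Slc1a2, a glutamate transporter, fell from 3.14 and 2.16 to 1.47 and 1.03 in Fah and to -2.47 and -2.45 in FCR, while its relative Slc1a4, a transporter of neutral amino acids, rose from -2.12 and -2.39 to 1.85, 1.69, 3.41 and 3.67. The median of the pericentral list was 0.34 in Fah and -1.34 in FCR. Periportal falls numbered 0, 2 and 1 without the continuous Fah, continuous FCR and Fah off arrays, and pericentral falls 2 and 1 without the continuous Fah and FCR arrays; with floored values the falls numbered 1 and 2.

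Of 11 genes of tyrosine, phenylalanine and related amino acid breakdown 4 fell and 0 rose, with a median of -1.31. The list is wider than the pathway that the Fah deletion blocks, since Hal and Tdo2 act on histidine and tryptophan. Tat, tyrosine aminotransferase, the first step of tyrosine breakdown, went from 7.60 in continuous Fah and 6.45 in continuous FCR to 5.96 in Fah off, 5.39 in Fah 2xoff/on, 4.80 in FCR off and 5.01 in FCR 2xoff/on, a difference of -1.74 ± 0.35 (SE; adjusted p = 0.0132). Hal, which starts histidine breakdown, fell from 6.52 and 6.10 to levels between 2.85 and 3.95, and Tdo2, which starts tryptophan breakdown, by 2.10 ± 0.43 (SE). Hpd, the enzyme that NTBC inhibits, had levels of 7.06 and 6.61 in the controls and 4.69, 5.67, 4.32 and 5.87 in the withdrawn arrays. All 4 lay below both controls, with both off arrays lower than both 2xoff/on arrays, and the difference of -1.69 ± 0.50 (SE) did not pass (adjusted p = 0.056). The 4 falls became 0 without the continuous Fah array, 2 without the continuous FCR, Fah off or Fah 2xoff/on array, 8 without the FCR 2xoff/on array, 7 with arrays centred on their median, and 2 after quantile normalization or with floored values. Of 12 heme genes 1 rose and 1 fell (8.33% each, against 9.56% and 4.65% among all genes). Hmox1, heme oxygenase, rose from 1.59 and 2.78 to 3.63 and 4.17 in Fah and 6.62 and 5.80 in FCR. Alas2, the erythroid aminolevulinate synthase, fell from 4.57 and 4.12 to 0.50, -0.18, 0.56 and 2.14. Neither hepatic Alas1 (-0.65) nor Alad (-0.63), the enzyme that succinylacetone inhibits, passed; both were named after their values were seen. Hmox1 did not pass without the continuous FCR array, nor Alas2 without the continuous Fah array.

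Targets of NRF2, the transcription factor of the response to electrophiles and oxidants, rose in 10 of 35 cases and fell in 0, but the list as a whole did not move alike. Its median difference was -0.28 in Fah and 1.11 in FCR. Slc7a11, which imports cystine for glutathione synthesis, was not well above background in the controls (-7.33 and -6.14) and stood at 0.92 and -0.95 in Fah and at 4.34 and 2.50 in FCR, at least 129-fold higher. Mgst2, a microsomal glutathione transferase, rose from -1.91 and 0.25 to 3.64, 3.82, 5.53 and 4.74, and Gpx2, a glutathione peroxidase of epithelia, from -3.37 and -2.91 to 1.95, -0.08, 3.44 and 1.99. Cbr3, a carbonyl reductase, rose by 4.14 ± 0.56 (SE). In Slc7a11, Mgst2, Cbr3 and Hmox1 both withdrawn FCR arrays lay above both withdrawn Fah arrays. For Mgst2, Cbr3 and Hmox1 the FCR control also lay above the Fah control, while the controls of Slc7a11 were too dim to order. For Mgst2 the difference was 5.64 in Fah and 4.89 in FCR. Nqo1, the most used NRF2 marker, had levels of 1.25 and 0.49 in the controls and 3.36, 1.57, 4.68 and 3.42 in the withdrawn arrays, and narrowly missed the threshold (2.38 ± 0.68, SE; adjusted p = 0.0506). The core of the antioxidant response element, read as TGACNNNGC, stood in 6 of 30 promoters of the list (20%) and in 14.3% of the promoters of all genes tested. The letters of AP-1 sites, TGANTCA, can lie inside that core, and stood in 23.3% of the 30 and in 5.86% of the tested genes. The rises numbered 4 without the continuous FCR array, and the falls 3 without the FCR off array.

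Aldo-keto reductases and aldehyde dehydrogenases split: 5 of 30 rose and 5 fell. Akr1b7, an aldose reductase-like enzyme, rose from -3.46 and -2.90 to 3.43, 4.31, 3.25 and 1.81, and Akr1b3, aldose reductase, by 2.70 ± 0.37 (SE). Rises numbered 2 and falls 0 without the continuous Fah array, and 3 and 1 without the continuous FCR array. Falls numbered 1 without the Fah off array, 3 without the Fah 2xoff/on array, 9 without the FCR 2xoff/on array and 1 with floored values.

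Of 28 genes of the integrated stress and unfolded protein responses 10 rose and 1 fell. Psat1 and Phgdh, enzymes of serine synthesis, rose from -3.68 and -1.53 to 1.35, 1.23, 3.31 and 2.80 and from -2.80 and -2.30 to 1.06, 1.44, 1.64 and 1.46. Vldlr, a lipoprotein receptor, rose by 3.32 ± 0.45 (SE). The 10 rises, which include Slc7a11 as in the list above, became 4 without the continuous Fah array, 6 without the continuous FCR array and 5 with floored values, and the list's median of 0.23 turned to -0.07 with arrays centred on their median. The falls numbered 0 without the continuous Fah array, 4 without the FCR off array, 3 without the FCR 2xoff/on array and 2 with arrays centred on their median.

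Targets of p53 rose in 11 of 27 cases and fell in 0, with a median of 1.05. The 4 with the largest differences were Psrc1 (5.83 ± 0.43, SE) and Ckap2 (4.89 ± 0.49), both also spindle proteins, Pmaip1, the apoptosis inducer Noxa (4.17 ± 0.76), and Gtse1 (4.07 ± 0.45), also a protein of dividing cells. Cdkn1a, the cell cycle inhibitor p21, had unequal controls: it stood at 0.70 in continuous Fah and -1.33 in continuous FCR, and at 1.19, 2.85, 2.57 and 3.89 in Fah off, Fah 2xoff/on, FCR off and FCR 2xoff/on. All 4 withdrawn levels lay above both controls, and the difference was 2.94 ± 0.78 (SE; adjusted p = 0.0382), with 1.32 in Fah and 4.56 in FCR, and the test between genotypes did not pass. The rises numbered 4 without the continuous FCR array, 6 without the continuous Fah array, 7 without the Fah 2xoff/on array and 5 with floored values.

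Chemokine genes rose in both genotypes. Of 28 chemokines 16 rose and 0 fell, with a median of 2.54. Ccl3, an attractant of monocytes and macrophages, went from -6.92 and -6.07 to -2.26, -1.42, 0.82 and -2.62, at least 15.4-fold higher, and Ccl4, with 1 of the 2 controls well above background, rose by 4.48 ± 0.64 (SE). Ccl12 was at least 8.46-fold and Cxcl5, an attractant of neutrophils, at least 6.1-fold higher. The chemokine count was 3 without the continuous Fah array, 9 without the continuous FCR array, 10 without the Fah off array, 7 after normexp background correction and 3 with floored values. Of 27 cytokine and TNF superfamily genes 7 rose and 0 fell. Tnfrsf12a, the receptor of TWEAK, rose from 0.53 and 0.18 to 3.40, 4.20, 4.04 and 4.64. Ltb, lymphotoxin beta, rose from -1.20 and -4.26 to 2.83 and 2.14 in Fah and to -0.27 and -1.76 in FCR, so that the FCR 2xoff/on array stayed below the Fah control. Ptgs2, the inducible cyclooxygenase, was near background in the controls and in both Fah withdrawn arrays (-8.31 and -5.26), stood at -1.88 and -0.07 in FCR, and did not pass. The cytokine count was 2 without the continuous Fah array, 2 without the Fah off array, 11 without the FCR 2xoff/on array and 3 with floored values.

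Acute phase proteins did not move as a list: 4 of 28 rose and 5 fell. Lcn2, an iron-sequestering protein of injured epithelium and neutrophils, went from -3.33 and -1.18 to 4.05, 5.02, 2.38 and 4.37. The metallothioneins Mt1 and Mt2, which bind zinc and copper, rose by 3.67 ± 0.50 and 4.35 ± 0.56 (SE). Cd14, the lipopolysaccharide co-receptor, rose evenly, from -1.57 and -1.50 to 2.66, 2.80, 2.80 and 3.07. The 4 rises became 7 without the FCR off array and 2 without the continuous Fah array. The 5 falls became 0 without the continuous Fah array, 1 without the continuous FCR array, 3 without the Fah off array, 2 without the Fah 2xoff/on array, 8 without the FCR off array, 2 after quantile normalization and 0 with floored values.

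Of 26 type I interferon stimulated genes 8 rose and 0 fell, with a median of 1.22. Ifi27l2a rose from 1.13 and 2.69 to 4.10, 4.32, 6.02 and 4.71. Oas2, a sensor of double-stranded RNA, rose by 1.95 ± 0.42 (SE), although its 2 probes gave 1.95 and 0.60. The control levels differed by genotype, FCR being higher for Ifi27l2a, Oas2 and Ifit2. The count was 0 without the continuous Fah array, 1 without the continuous FCR array, 1 without the Fah off array, 4 without the Fah 2xoff/on array, 13 without the FCR off array, 2 with floored values and 1 with arrays centred on their median. Of 20 immediate early genes 6 rose and 1 fell. Fosl1, an AP-1 subunit, was at least 6.95-fold higher, Ier3 rose from -3.86 and -3.08 to 0.41, -0.06, 1.66 and 1.75, and Egr2 and Klf4, zinc finger factors, rose by 3.51 ± 0.72 and 3.10 ± 0.45 (SE). The rises numbered 2 without the continuous FCR array, 3 without the continuous Fah array and 3 with floored values; the fall, of Ier2, named after its value was seen, was lost without any 1 of the continuous or withdrawn Fah arrays.

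Growth factor genes of the EGF receptor and HGF axis rose in 5 of 19 cases and fell in 3. Areg, a ligand of the EGF receptor, was at least 4.01-fold higher and Hgf, the ligand of Met, rose from -4.0 and -3.89 to -1.21, 0.14, -0.86 and -1.12. St14, the protease matriptase, and Spint1, its inhibitor, rose by 4.27 ± 0.53 and 4.16 ± 0.67 (SE), both higher in the Fah arrays (2.46 and 1.84, 2.28 and 1.40) than in the FCR arrays (-0.54 and -0.20, -1.02 and -1.47). Among the 3 falls was Egfr, the receptor itself, at -2.34, named after its value was seen. The rises numbered 2 without the continuous Fah array and 3 with floored values; the falls numbered 0 without it, 1 without the continuous FCR array and 5 without the FCR off array.

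**Figure D4:**
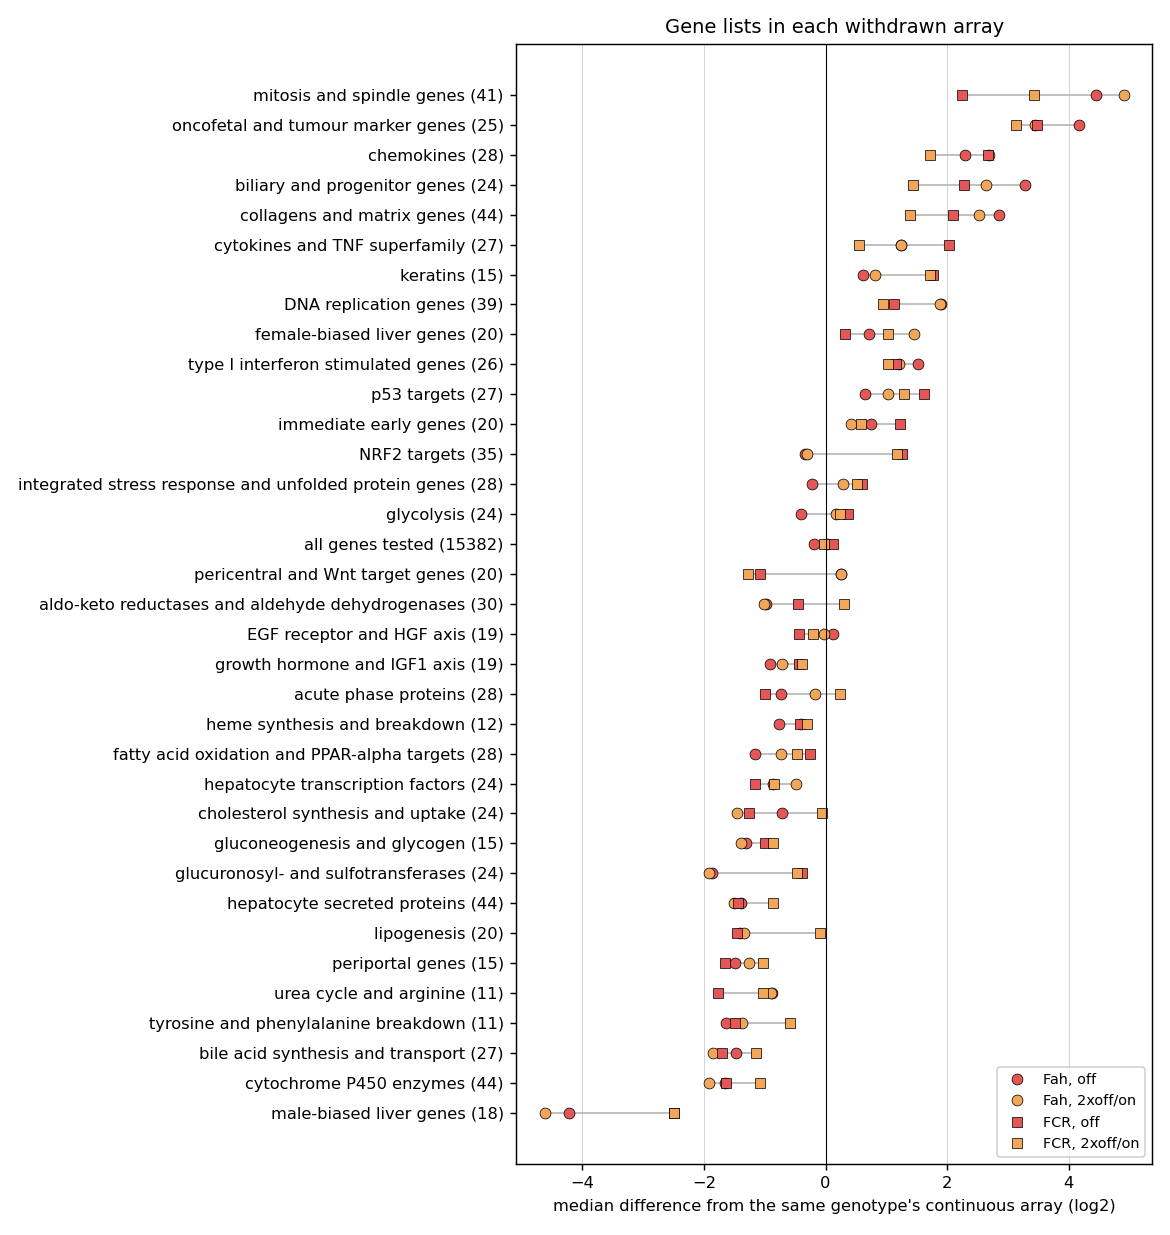
Median over the members of each gene list (rows, with the number of genes measured) of the log2 difference between a withdrawn array and the continuous array of the same genotype; circles are Fah, squares FCR, red off, orange 2xoff/on, and the grey line joins the 4 arrays. Mitosis genes (2.24 to 4.90) and fetal and tumour marker genes (3.13 to 4.16) lie far to the right in all 4 arrays and male-biased genes (-4.61 to -2.49) far to the left, while NRF2 targets and pericentral genes lie on opposite sides of 0 in Fah and FCR.

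Matrix and remodelling genes rose in 25 of 44 cases and fell in 0, with a median of 2.24. Lgals3 and S100a6, a lectin and a calcium-binding protein of injured and fibrotic tissue, rose by 4.38 ± 0.46 and 4.27 ± 0.48 (SE), almost the same in each genotype. Mmp12, the macrophage elastase, was at least 7.4-fold higher, with FCR 2xoff/on (-5.31) near the controls (-7.16 and -6.47), and Mmp8, the neutrophil collagenase, at least 7.87-fold. Col1a1, the chain of type I collagen, stood at -0.25 and -0.31 in the controls, at 4.65 and 2.79 in Fah off and FCR off and at 2.80 and 0.08 in Fah 2xoff/on and FCR 2xoff/on, and did not pass (2.86 ± 0.85, SE; adjusted p = 0.0564). Lum, a collagen-binding proteoglycan, rose by 2.81 ± 0.69 (SE), and was again lowest in FCR 2xoff/on. Stellate cell and fibroblast markers moved beside them: 6 of 16 rose, and their summed level was 57.3 and 65.5 in the continuous arrays and 114 to 236 in the withdrawn ones, lowest in FCR 2xoff/on; their part in the matrix rise was not tested. The matrix count was 4 without the continuous Fah array, 11 without the continuous FCR array, 14 without the Fah off array, 16 with arrays centred on their median and 9 with floored values. The stellate cell count was 0 without the continuous Fah array, 2 without the continuous FCR array, 2 without the Fah off array, 3 without the Fah 2xoff/on array, 2 with arrays centred on their median and 0 with floored values.

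Neutrophil and macrophage markers rose more often than lymphocyte markers, a difference that was not tested. FCR mice lack T, B and NK cells, so the shared difference cannot show a lymphocyte response of Fah alone. The median differences of T cell, B cell and NK cell markers were 0.86, 0.84 and 1.83 in Fah. In FCR they were -0.08, 0.30 and 0.46. Of 17 neutrophil markers 14 rose and 0 fell, with a median of 3.69, and their summed level was 2.83 and 4.14 in the continuous arrays against 31.3 to 67.3 in the withdrawn ones. S100a8, a calcium-binding protein of neutrophils and monocytes, rose from -3.84 and -3.15 to 0.28, 2.56, 1.56 and 2.85, and the granule protein gene Camp was at least 10.8-fold higher. Of 24 macrophage markers 11 rose and 0 fell, with summed levels of 40.7 and 50.2 against 88.9 to 417. Gpnmb, of lipid-laden macrophages, went from -7.42 and -6.02 to 1.55, 2.86, 1.07 and -0.89, at least 88.2-fold higher, and Trem2, a lipid receptor of the same cells, rose by 4.96 ± 0.90 (SE), with FCR 2xoff/on lowest at -0.11. Of 8 mast cell markers 3 rose. Cpa3, the mast cell carboxypeptidase, stood at 0.62 and 2.72 in Fah but at -5.60 and -4.50 in FCR, against -7.26 and -7.62 in the controls, and Mcpt4 was at 0.92 and 3.88 in Fah and near its control level in FCR (-3.94 and -3.47 against -4.42); the list's median was 4.26 in Fah and 0.82 in FCR.

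Of 15 T cell markers 0 passed in limma (2 at an unadjusted p under 0.05, and 1 without the FCR 2xoff/on array), and their summed level was 1.97 and 3.05 in the controls and 1.87 to 3.20 after withdrawal. Of 15 B and plasma cell markers 1 rose (6.67%), Blnk, which myeloid cells also express. Of 12 NK and cytotoxic markers 2 rose (16.7%), Eomes and Ccl5. Eomes, which acts in NK and T cell development, was near background in the controls and in Fah (-5.93 and -3.97) and highest in FCR (-0.97 and -0.32), the genotype labelled as lacking the common gamma chain. Of 18 endothelial markers 1 rose (5.56%), Cd34, with summed levels of 51.7 to 89.3 over all 6 arrays. The shares of B cell and endothelial markers that rose lay below the 9.56% among all genes. Of 9 erythroid markers 1 rose and 3 fell, of 8 platelet markers 1 rose, Pf4, and of 8 exocrine pancreas markers 1 rose and 1 fell. Of the erythroid markers 0 rose and 0 fell without the continuous Fah array, and 1 fell without the continuous FCR array. Of the exocrine markers 0 passed without the continuous FCR array, and 0 fell without any 1 of the 3 Fah arrays. Without the continuous FCR array 0 markers of B cells, NK cells, endothelium or platelets passed, and with floored values likewise 0. The B cell rise was also lost without any 1 of the 3 Fah arrays. The endothelial rise was also lost without the continuous Fah or the Fah off array, and the platelet rise without the continuous Fah array. Both the B cell and the endothelial rise were lost with arrays centred on their median, after quantile normalization and with the authors' values. The neutrophil count was 6 without either continuous array, 7 after normexp background correction and 3 with floored values. The macrophage count was 2 without the continuous Fah array, 4 without the continuous FCR array, 6 and 7 without the Fah off and Fah 2xoff/on arrays, 19 without the FCR 2xoff/on array and 5 with floored values. Mast cell genes numbered 0 without the continuous Fah array, 1 without either withdrawn Fah array, 5 without the FCR 2xoff/on array and 0 with floored values.

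**Figure D5:**
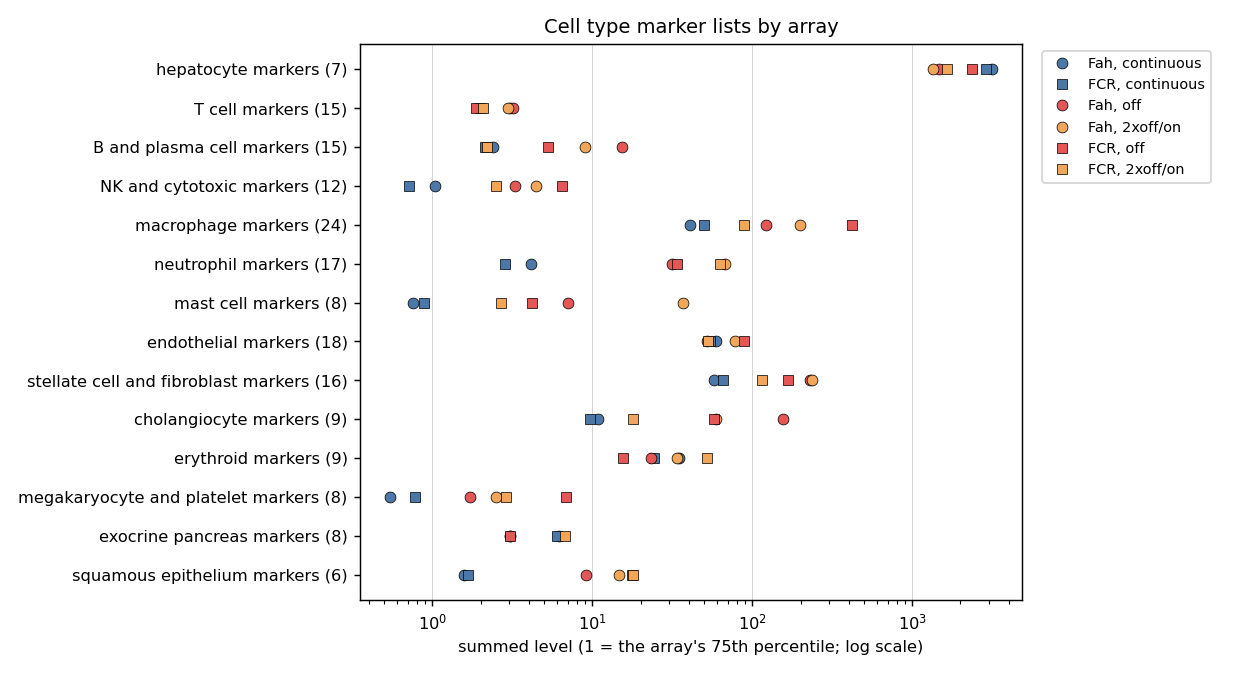
Summed level of each cell type's marker genes (rows, with the number measured) in the 6 arrays, on a logarithmic axis where 1 equals the array's 75th percentile signal; circles are Fah, squares FCR, blue continuous NTBC, red off and orange 2xoff/on. Neutrophil markers separate the continuous arrays (2.83 and 4.14) from the withdrawn ones (31.3 to 67.3), hepatocyte markers lie lower after withdrawal (1350.1 to 2357 against 2884 and 3134), and T cell markers overlap.

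Some genes moved by nearly the same amount in all 4 withdrawn arrays. Those named here from Cd14 to Olfr1384 were chosen for that evenness, so it is no separate result about genotype or regimen. Besides Cd14, Tmem86a, an enzyme of ether lipid breakdown, rose from -0.15 and 0.12 to levels between 2.46 and 2.64. Glipr2 rose by 3.52 ± 0.36 (SE) and Marchf9, a ubiquitin ligase, by 2.39 ± 0.39 (SE), and Bend6 was at least 3.25-fold higher. Amdhd1, a later enzyme of histidine breakdown, fell from 4.67 and 4.80 to levels between 2.50 and 2.78, and Cyp2u1, a fatty acid hydroxylase, from 1.42 and 1.39 to levels between -1.67 and -1.25. Syt3 and Neurog2, known from nerve cells, and the olfactory receptor gene Olfr1384 fell by 3.15 ± 0.46, 2.37 ± 0.45 and 3.09 ± 0.44 (SE), and others not known from liver were among the largest falls: Olfr677 fell at least 9.57-fold, and Crxos fell by 4.90 ± 0.56 (SE). Olfr125 fell from -1.12 and -1.30 to levels of -5.12 and below, with 1 of the 4 withdrawn arrays well above background, and Myh2, a muscle myosin, from -0.18 and -0.34 to levels between -6.08 and -3.85, with 3 of the 4. Rgs16, which shortens G protein signals, fell from 4.21 and 4.78 to -1.42, -0.97, 0.66 and -0.29. Serpina4-ps1 went from 4.66 and 3.10 to levels between -3.91 and -2.62, and Slc22a30, an organic anion transporter, fell by 4.92 ± 0.65 (SE). For Hsd3b4, a steroid dehydrogenase, 1 probe fell by 5.36 and the other by 0.10, so its fall is uncertain.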

How the data were processed

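RNA of 6 mouse livers was hybridised, 1 sample an array, to 1-colour (Cy3) Agilent arrays. The authors deposited scanner intensity per spot from Agilent Feature Extraction, version 10.7.3.1 with protocol GE1_105_Dec08 per the file headers and version 10.5 per the submitters' processing notes. The authors also deposited a table of log2 values, made by a normalization not given in the sources used here, which served as an alternative only. Each processed intensity was taken as log2 and reduced by the array's 75th percentile. Control spots and outlier spots (57 to 82 an array) were left out. Of 41174 probes 26933 had a gene name in the files. The probe with the highest mean stood for each of 18342 genes, and the 15382 genes well above background on at least 2 of the 6 arrays were tested. Among the genes that passed, other probes can disagree, and 6535 of all genes had several probes.

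Groups came from the sample titles and genotypes in the labels. limma 3.58.1 (R 4.3.3; lmFit, eBayes with an intensity trend) fitted genotype plus withdrawal with 3 residual degrees of freedom, and the genotypes' difference from 4 group means with 2, assuming that the lone continuous arrays vary like the others. Tests were two-sided with Benjamini-Hochberg adjustment over all genes tested, and the fit was tested on simulated data. The number of arrays limits the precision. Summed marker levels are sums of linear signals over the 75th percentile. A fold given as "at least" sets the bright arm's mean against, per dim array, the higher of the lowest well-above-background signal and the probe's own signal. That lowest signal is taken over all probes of the array, so the bound is approximate.

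Genes are named by these rules: the 15 largest rises and falls that moved alike and were measured above background throughout the higher arm, the 5 each way that moved most evenly, up to 4 members of each list with the largest difference, 9 genes of the model, and 3 each way that moved oppositely in the genotypes. The members and lists were chosen with earlier results of these data known. Values below a common floor were treated alike in an alternative chosen after seeing the data; the others were another background correction, normalization, filter, probe rule, source of values, block, regimen, variance fit, and leaving out each array. The headers name genome build mm9, no coordinate of which is printed, and promoters are from RefSeq's GRCm38.p6 table. Some genes that these rules name are not reported here.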

Additional observations from a re-analysis of the deposited data

Results flagged for a closer look

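Among the 48 genes checked for an array apart from the other withdrawn arrays, 3 had 1 difference from their own genotype's control far from the remaining 3. The gap, divided by the whole range, was above Dixon's 95% critical value for 4 values, which chance passes for about 1 gene in 20. Igf2 was 8.97 above its control in FCR 2xoff/on and 7.58, 7.76 and 7.79 in Fah off, Fah 2xoff/on and FCR off. Syt3 was at -3.37 in Fah 2xoff/on, against -3.08, -3.10 and -3.04 in Fah off, FCR off and FCR 2xoff/on, a gap that is small beside its mean fall. Cyp7a1 was at -2.22 in FCR off, against 0.91, 0.46 and 0.62 in Fah off, Fah 2xoff/on and FCR 2xoff/on.

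Another 6 genes went opposite ways in the genotypes, in both withdrawn arrays of each. They were the 3 each way with the largest gap between genotypes, so their gaps are a description of chosen genes, and none passed the limma test of the genotypes' difference (adjusted p 0.798 or more). Cd200r3, a receptor of mast cells and basophils, differed by 3.85 in Fah and -3.73 in FCR, a gap of 7.58. For Myom2, a muscle protein, the values were 3.38 and -3.42, a gap of 6.80. Slamf7, a receptor of lymphocytes and plasma cells, gave 3.55 and -2.74, a gap of 6.29. In the other direction Nsun3, a mitochondrial RNA methyltransferase, gave -4.86 in Fah and 1.45 in FCR, a gap of -6.31. Tex19.1, a germ cell gene, gave -3.37 and 2.79, a gap of -6.16. Meig1, a gene of sperm formation, gave -2.60 and 2.95, a gap of -5.54.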

How the results depend on the processing

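Among the alternatives tried, the count of genes that passed fell furthest without the continuous Fah array, to 283. Leaving out 1 array in turn gave 283 to 3090 genes (253 to 1991 higher and 30 to 1242 lower) against 2185 (1470 and 715), and 0 to 4 genes in the test between genotypes, which could be run only with a withdrawn array left out. Of the 2185 genes, 2088 kept their sign in every alternative and 207 passed with each array left out in turn. Since all 2185 moved alike, their sign was fixed beforehand wherever the values stayed the same, as in leaving out an array or changing the block. Only alternatives that changed the values could turn it. With values floored at a common level 737 passed (478 higher and 259 lower), and 689 of these were among the 2185. The authors' deposited log2 values gave 1307 (863 and 444). After normexp background correction 818 genes were higher and 2 passed between genotypes. Quantile normalization gave 453 lower genes, and arrays centred on their median gave 960 higher. Slide 1 alone gave 3415 (2230 and 1185), the 2xoff/on regimen alone 3980 with 1858 lower, and slide as a block 91 genes between genotypes. Each of these fits left 1 residual degree of freedom. Without a genotype's continuous array the withdrawal difference came from the other genotype alone. The cause of the other changes was not tested. Removing the dim-probe filter, a stricter filter, the mean of a gene's probes, no intensity trend, no genotype block and group means moved no count by over 1.5 times.

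Of the 216 named genes 161 passed, and none of the 161 changed direction in the 20 alternatives. In alternatives that kept the values the same, that direction was fixed beforehand. Of the 161 genes 90 were lost without the continuous Fah array, 68 with floored values and 53 without the continuous FCR array. Under another scaling the median changed sign for the T cell, B cell, NK cell, erythroid, platelet, exocrine pancreas, acute phase, glycolysis and stress response lists. A probe under background has only a bound, so the levels of dim genes have no order. The genotype block sets each withdrawn array against its own genotype's control, and without it 1794 genes passed.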
